A study of Rattus norvegicus with 32 samples.

Results

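The 9 genes described here, Gad1, Gad2, Slc32a1, Dlx1, Lhx6, Sst, Npy, Vip and Calb2, are identity genes of GABAergic interneurons, the inhibitory nerve cells of the hippocampus. They were chosen by gene symbol, and all 9 were found among the 17216 genes of the count tables. The tables describe 16 single hippocampal neurons of wildtype Sprague Dawley rats, taken at embryonic day 18, kept in culture for 15 days and labelled pyramidal. The soma and the dendrites of each neuron were aspirated with separate micropipettes, which gave 16 soma and 16 dendrite libraries of polyadenylated RNA amplified in 3 rounds by in vitro transcription (aRNA). No treatment or other genotype was part of the series, and the culture and day of each neuron are not given, although there were several of both. Neurons are named by the numbers in their labels, from 7 to 28.

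Interneurons make GABA from glutamate with 2 decarboxylases, encoded by Gad1 and Gad2, and load it into vesicles with the transporter encoded by Slc32a1. Dlx1 and Lhx6 encode homeodomain transcription factors of the ventral forebrain, where hippocampal interneurons are born, and Lhx6 is known for the lineage that gives somatostatin cells. Sst, Npy and Vip encode the peptides somatostatin, neuropeptide Y and vasoactive intestinal peptide, and Calb2 encodes the calcium-binding protein calretinin, by which interneuron classes are told apart. Calb2 is also known from Cajal-Retzius cells and from immature neurons.

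A gene is said here to be held by a library when it had 10 counts or more. Levels are given as CPM, the count scaled to a library total of 1000000 gene counts. Soma libraries had between 878125 and 24721811 gene counts and dendrite libraries between 229149 and 24439768, and the soma was the deeper library in 14 of 16 neurons. A count of 0 allows a level of up to 0.121 CPM in the deepest library and 13.1 CPM in the shallowest (3 counts of the total). These limits cover counting error only, and amplified reads are not independent molecules. Fewer transcripts in a cell compartment and loss during aspiration or amplification cannot be told apart. The excitatory gene Neurod6, which encodes a transcription factor of pyramidal neurons, was held by all 32 libraries, while the 7 microglia markers were held by 0. The libraries of neurons 7, 8 and 9 stood apart in the 9 genes, and in neurons 7 and 9 the soma and the dendrites differed in which genes they held. Values without these 3 neurons are therefore given beside many of the main tests and counts. The exact sign test, the share of genes in Fisher's exact test, correlations between genes and counts with excitatory genes are given mainly over all neurons.

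The promoter windows of 4 of these genes are shown because Gad1, Slc32a1, Dlx1 and Sst were held together with Lhx6 in the same libraries. Each spans the annotated start in RefSeq (build GRCr8, not the build of the counts) and is written 5′ to 3′. Capitals mark matches on either strand to TAATTA, a core bound by homeodomain factors, to TGACGTCA, the cyclic AMP response element, or to TATAAA, the TATA box.
Gad1, chr3:75777202-75777501, plus strand: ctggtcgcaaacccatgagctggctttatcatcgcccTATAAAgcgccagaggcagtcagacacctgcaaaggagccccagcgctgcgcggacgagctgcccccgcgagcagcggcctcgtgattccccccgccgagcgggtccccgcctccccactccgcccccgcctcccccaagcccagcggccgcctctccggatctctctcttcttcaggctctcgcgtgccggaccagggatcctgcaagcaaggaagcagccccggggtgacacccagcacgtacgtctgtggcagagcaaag
Slc32a1, chr3:167686995-167687294, plus strand: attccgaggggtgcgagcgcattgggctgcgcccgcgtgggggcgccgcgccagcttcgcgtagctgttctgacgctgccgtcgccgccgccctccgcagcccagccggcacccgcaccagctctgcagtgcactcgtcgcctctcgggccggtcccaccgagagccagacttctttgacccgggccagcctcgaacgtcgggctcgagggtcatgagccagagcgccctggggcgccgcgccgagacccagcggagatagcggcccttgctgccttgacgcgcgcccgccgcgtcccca
Dlx1, chr3:76763614-76763913, plus strand: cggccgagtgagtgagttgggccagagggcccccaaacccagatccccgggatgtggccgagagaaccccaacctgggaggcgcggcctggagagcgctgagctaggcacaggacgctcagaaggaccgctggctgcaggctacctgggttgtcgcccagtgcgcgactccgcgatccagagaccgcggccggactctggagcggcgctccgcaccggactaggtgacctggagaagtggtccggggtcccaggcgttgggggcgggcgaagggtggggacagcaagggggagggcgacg
Sst, chr11:90461296-90461595, plus strand: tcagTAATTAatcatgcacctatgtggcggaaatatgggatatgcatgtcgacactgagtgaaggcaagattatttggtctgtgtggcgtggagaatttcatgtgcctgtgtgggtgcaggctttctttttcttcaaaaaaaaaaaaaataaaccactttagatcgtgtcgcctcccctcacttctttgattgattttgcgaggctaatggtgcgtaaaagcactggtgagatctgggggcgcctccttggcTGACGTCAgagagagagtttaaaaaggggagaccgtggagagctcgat
The Sst window had TAATTA from base -246 and TGACGTCA from base 3, counted from the annotated start with no base 0, and the Gad1 window had TATAAA from base -213. Among the 8 members matched to the RefSeq table by symbol, TAATTA occurred in 1 window, TGACGTCA in 1 and TATAAA in 2 (Gad1 and Vip). No matches overlapped a match to another of these motifs. Over all 33469 windows of that length, 5.36% held TAATTA, 1.83% TGACGTCA and 14.2% TATAAA. The windows of Slc32a1 and Dlx1, both rich in G and C (73.7% and 70.3%, against a median of 51.7% over all windows), had no match, which says only that these letters are not in them. Calb2 had no entry.

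Most libraries held some interneuron genes and few held many. Of 288 combinations of gene and library, 78 reached 10 counts (27.1%). That was close to the share over all 17216 genes (26.1%) and below that over the 13879 genes with a count in any library (32.3%). At least 1 of the 9 genes was held by 30 of 32 libraries, a number not set against other sets of 9 genes. Calb2 was held by 19 libraries and Gad1 by 18, followed by Slc32a1 and Sst with 12 each, Dlx1 with 6, Gad2 and Lhx6 with 4 each, Npy with 2 and Vip with 1. The somata of neurons 14 and 20 held none. Only 5 libraries held 5 or more: the soma of neuron 9 with 7 genes, the soma of neuron 8, the dendrites of neuron 8 and the dendrites of neuron 7 with 6 each, and the dendrites of neuron 13 with 5. Without neurons 7, 8 and 9, 49 of 234 combinations reached 10 counts (20.9%), and 1 of 26 libraries held 5 or more. Shares over the same 26 libraries were 24% for all genes and 29.8% for genes with a count in any library.

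**Figure D1:**
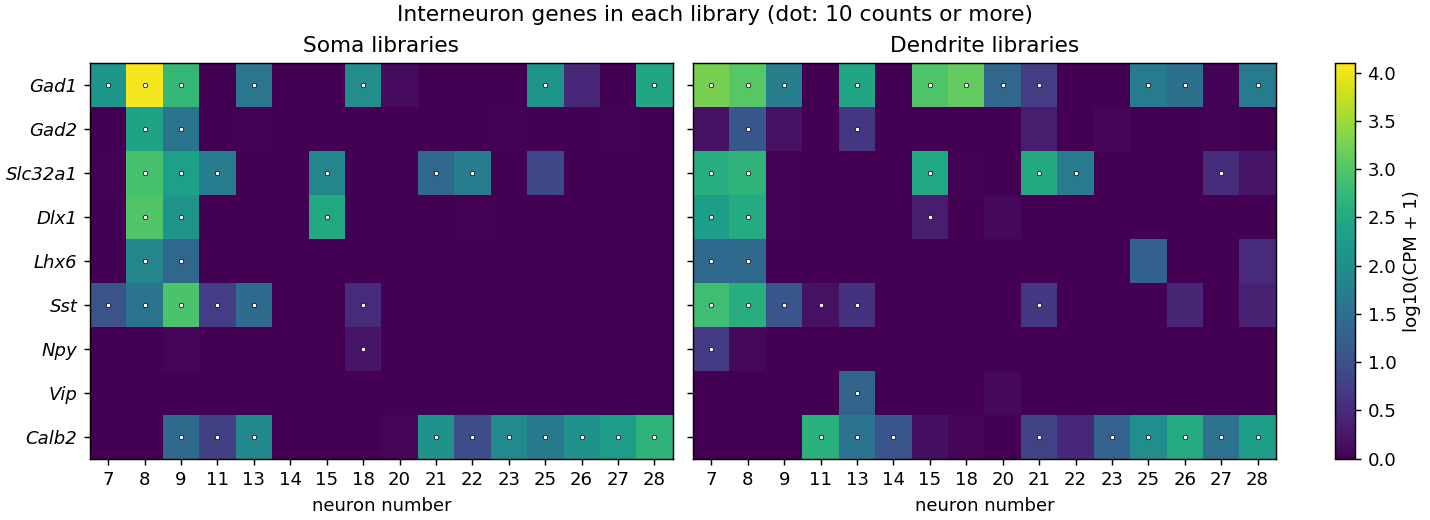
Level of each gene as log10(CPM + 1) (colour) in the 16 soma and 16 dendrite libraries (columns, by neuron number), with a dot where the library had 10 counts or more. The dots of Lhx6 are in the somata of neurons 8 and 9 and the dendrites of neurons 7 and 8, while those of Calb2 lie mostly in neurons numbered 21 and above.

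Gad1, the main GABA-synthesizing enzyme gene, was held by 7 soma and 11 dendrite libraries. Its soma level ran from 0 over a median of 1.12 to 11161 CPM, the highest being neuron 8, which held 90.1% of the level summed over somata. Its dendrite level ran from 0 over a median of 40.01 to 1833 CPM, the highest being neuron 7. Dendrites thus had the higher median and somata the higher mean (774 ± 2774 against 351 ± 587 CPM, SD over 16 neurons), and the ranges overlapped. Below neuron 8, soma levels were 545 CPM in neuron 9, 261 in neuron 28, 144 in neuron 7, 132 in neuron 25, 99.8 in neuron 18 and 39.1 in neuron 13. Among dendrites, neurons 18, 8 and 15 followed neuron 7, with 1306, 1069 and 923 CPM.

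Gad2, the gene of the second decarboxylase, was far less often seen. It was held by the somata of neurons 8 (233 CPM) and 9 (37.2 CPM) and by the dendrites of neurons 8 (11.9 CPM) and 13 (3.49 CPM), all 4 of which also held Gad1. The other 14 libraries with Gad1 had 0 to 8 counts of Gad2.

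Slc32a1, the vesicular transporter gene, was held by 6 libraries of each compartment. In soma it ran from 0 over a median of 0.0333 to 817 CPM in neuron 8, and in dendrites from 0 over a median of 0.0616 to 469 CPM, also in neuron 8, with fully overlapping ranges. Its libraries were partly other ones than those of Gad1: 6 libraries held both, against 12 for Slc32a1 and 18 for Gad1. The somata of neurons 11, 15, 21 and 22 held Slc32a1 at 52.1, 71.5, 23.6 and 53.6 CPM with 0 counts of Gad1.

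The transcription factor genes were held by few libraries. Lhx6 was held by the somata of neurons 8 (72.2 CPM) and 9 (23.3 CPM) and the dendrites of neurons 8 (25.4 CPM) and 7 (24.1 CPM). Of the other 28 libraries, 26 had 0 counts of Lhx6, and the dendrites of neurons 25 and 28 had 4 and 3 counts. Dlx1 was held by the same 4 libraries, with 987 CPM in the soma and 337 CPM in the dendrites of neuron 8, 133 CPM in the soma of neuron 9 and 197 CPM in the dendrites of neuron 7. It was also held by the soma (306 CPM) and, near the limit, the dendrites (22 counts, 1.14 CPM) of neuron 15, which had 0 counts of Lhx6.

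Of the peptide genes, Sst was held by 6 libraries of each compartment. Its soma level ran from 0 over a median of 0 to 858 CPM in neuron 9, and its dendrite level from 0 over a median of 0.259 to 689 CPM in neuron 7 and 371 CPM in neuron 8. The 2 highest dendrite libraries made up 98.0% of the summed dendrite level, and the highest soma 91.5% of the summed soma level. Npy stayed at the limit, with 34 counts in the dendrites of neuron 7 (4.25 CPM) and 14 in the soma of neuron 18 (0.700 CPM). Vip was held only by the dendrites of neuron 13, with 394 counts (20.5 CPM), and had 0 counts in all 16 somata.

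Calb2 had another distribution. It was held by 10 soma and 9 dendrite libraries, with soma levels from 0 over a median of 16.5 to 458 CPM in neuron 28 and dendrite levels from 0 over a median of 8.12 to 413 CPM in neuron 11. Somata and dendrites overlapped over nearly the whole range, with means of 70.4 ± 118 and 71.2 ± 129 CPM (SD, n = 16). In neurons 7 and 8 all 4 libraries had 0 counts. Of the 4 libraries with Lhx6, only the soma of neuron 9 held Calb2, at 24.7 CPM.

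The first comparison asked whether these transcripts differed in level between dendrites and soma of the same neuron. With edgeR's quasi-likelihood test and the neuron as a block, 0 of 4916 tested genes (0%) had an adjusted p under 0.05, and 129 (2.62%) had an unadjusted p under 0.05. Of the 9 members, Gad1 and Calb2 passed the filter on low counts, and 0 of these were called. Gad1 had a log2 fold change of dendrites over soma of 2.36 ± 1.36 (SE, n = 16 neurons, edgeR adjusted p = 0.999), and was higher in dendrites in 8 neurons, higher in soma in 4 and at 0 in both in 4. Calb2 stood at -0.29 ± 1.81 (SE, edgeR adjusted p = 0.999), higher in dendrites in 6 neurons and in soma in 8. The direction of Gad1 turned with the model: it was -1.41 when the replicate block was dropped and -0.60 in limma-voom, and both of these fits called 0 genes (336 and 226 at an unadjusted p under 0.05). DESeq2's Wald test called 403 genes (8.2%), of which 273 were higher in dendrites, and Gad1 was among them at 2.82 (adjusted p = 0.0422, against 0.0422 to 1 over 23 alternative fits). Without neurons 7, 8 and 9, edgeR gave Gad1 3.20 ± 1.67 (SE, 13 neurons, edgeR adjusted p = 0.999) and called 0 of 4312 genes, with 112 at an unadjusted p under 0.05. A difference of Gad1 between compartments was therefore not stable across tools.

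Within neurons the differences were large and went both ways. Where both compartments held Gad1, which was the case in 7 neurons, the level was higher in dendrites in neuron 18 (13.1-fold), neuron 7 (12.7-fold) and neuron 13 (6.87-fold), and higher in soma in neuron 8 (10.4-fold), neuron 9 (9.75-fold), neuron 28 (5.34-fold) and neuron 25 (2.75-fold). Neuron 15 had 0 Gad1 counts in its soma and 17779 in its dendrites, although the soma library had 24721811 gene counts. Calb2 ranged from 82.4-fold higher in dendrites in neuron 11 to 23.8-fold higher in soma in neuron 21. For Sst, the log2 ratio of dendrites to soma ran from -6.28 in neuron 9 to 6.06 in neuron 7 over the 5 neurons that held it in both. The values of neurons 7 and 9 rest on the labelled pairing, which is described further on: Gad1 was at 144 and 545 CPM in their somata and at 1833 and 56.0 CPM in their dendrites, and Sst at 10.3 and 858 CPM in their somata and at 689 and 11.02 CPM in their dendrites. Without neurons 7, 8 and 9, 4 neurons held Gad1 in both, with log2 ratios from -2.42 to 3.71, and 2 held Sst in both, with log2 ratios of -3.14 and -3.11.

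**Figure D2:**
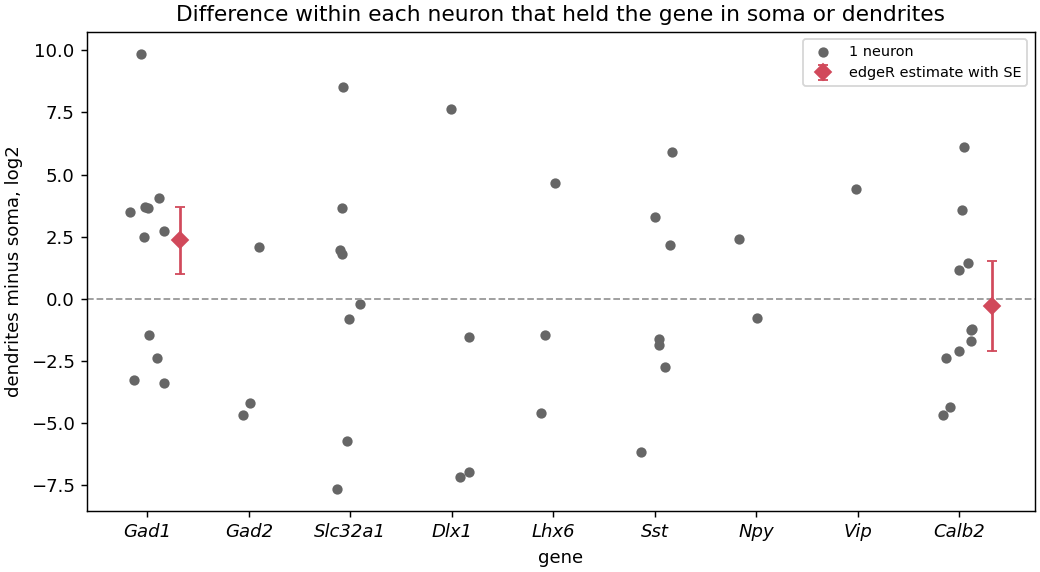
Difference of log2(CPM + 1), dendrites minus soma, in each neuron where at least 1 of its libraries held the gene (grey points, scattered sideways for legibility), with the edgeR log2 fold change and its SE for Gad1 (2.36 ± 1.36) and Calb2 (-0.29 ± 1.81). Points of Gad1, Slc32a1, Sst and Calb2 lie on both sides of 0. The SE of Calb2 comes from a small F statistic and is not reliable.

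Presence was compared too, since it covers the 7 members that the count model dropped. An exact sign test over neurons where 1 compartment held the gene and the other did not called 0 of 10873 genes at an adjusted p of 0.05 (0%), and 73 (0.671%) had an unadjusted p under 0.05. None of the 9 members was among these 73. The smallest p that 16 neurons allow in this exact sign test is 3.05e-05, so that calls could come only for 7 or more genes at once. Gad1 had the most uneven split, with 4 neurons holding it in dendrites only and 0 in soma only (exact sign test p = 0.125, two-sided, adjusted p = 1), which was 3 and 0 after thinning 15 neurons to 1071293 gene counts per library. For the other 8 genes the numbers of neurons with soma only and dendrites only differed by at most 1.

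The second comparison asked whether both compartments of a numbered neuron held the same interneuron genes. All 7 neurons with Gad1 in the soma also held it in the dendrites, where the product of the marginal shares would give 4.81, and 5 neurons held it in neither (Fisher's exact test p = 0.0337, two-sided). Sst was held in both compartments in 5 neurons, against 2.25 from the shares (p = 0.00762 by Fisher's exact test). Calb2 was held in both in 8, against 5.63 (p = 0.0350 by Fisher's exact test). Slc32a1 was shared in 4 neurons, against 2.25 (p = 0.118 by Fisher's exact test), and Dlx1 in 2, Gad2 and Lhx6 in 1 each, Npy and Vip in 0. After adjustment over all 7669 genes that could be tested, each of those tested had an adjusted p of 1 and 0 genes (0%) were called. The smallest p that 16 neurons allow in this test is 8.74e-05, so that calls by this exact test could come only for 14 or more genes at once. Genes with an unadjusted p under 0.05 that were held together more often than the shares gave numbered 199 (2.59%).

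Single unadjusted values depended on the neurons and on depth. Without neurons 7, 8 and 9, Gad1 was shared by 4 of 13 neurons (Fisher's exact test p = 0.105), Sst by 2 (p = 0.108), Calb2 by 8 (p = 0.0517) and Slc32a1 by 3 (p = 0.0517). At 50 counts or more in place of 10, Sst was shared by 4 of the 16 neurons (Fisher's exact test p = 0.00275) and Calb2 by 6 (p = 0.0601). After thinning to 1 depth, Sst was shared by 2 of 15 neurons (Fisher's exact test p = 0.0813), Gad1 by 6 (p = 0.0278) and Calb2 by 5 (p = 0.0406).

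**Figure D3:**
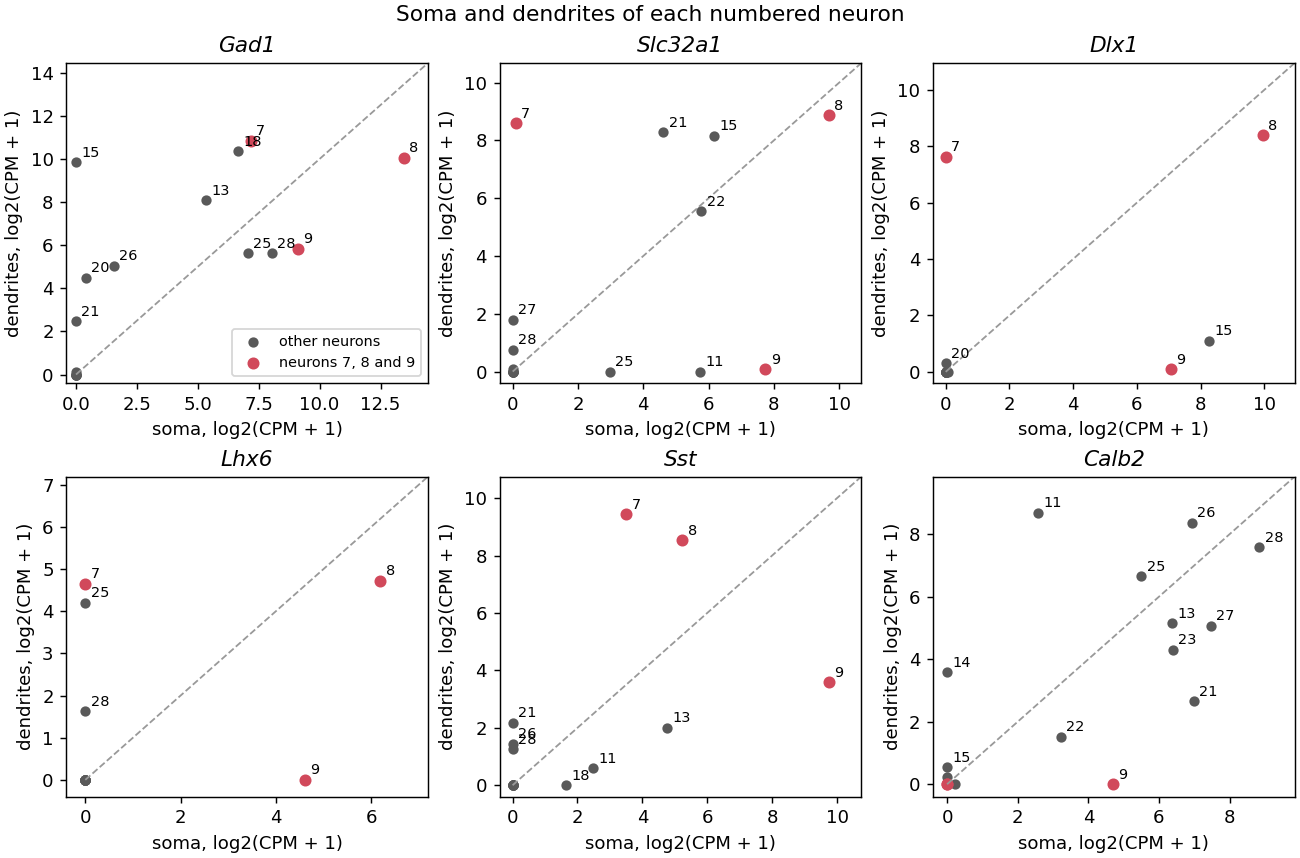
Level in dendrites against level in soma of the same numbered neuron, both as log2(CPM + 1), for 6 genes, with neurons 7, 8 and 9 in red and the diagonal dashed. For Slc32a1, Dlx1 and Lhx6, neuron 8 lies far out on both axes, neuron 7 only on the dendrite axis and neuron 9 only on the soma axis.

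Neurons 7, 8 and 9 carried the richest sets, and in neurons 7 and 9 the numbers did not group the libraries as the genes did. The soma and the dendrites of neuron 8 held the same 6 genes: Gad1, Gad2, Slc32a1, Dlx1, Lhx6 and Sst. The soma of neuron 9 held these 6 and Calb2, while the dendrites of neuron 9 held Gad1 (56.0 CPM) and Sst (11.02 CPM) alone, with 1 count each of Slc32a1 and Dlx1 and 0 of Lhx6. Neuron 7 showed the reverse. Its dendrites held Gad1, Slc32a1, Dlx1, Lhx6, Sst and Npy, with 4 counts of Gad2, while its soma held Gad1 (144 CPM) and Sst (10.3 CPM) alone, with 1 count of Slc32a1 and 0 of Dlx1 and Lhx6. The soma of neuron 9 and the dendrites of neuron 7 thus shared 5 of the genes, and the soma of neuron 7 and the dendrites of neuron 9 held the same 2.

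Some excitatory genes were higher in the 2 libraries with few interneuron genes, and others were not. As a list, the 13 excitatory markers summed to 4019 CPM in the soma of neuron 7 and 8460 CPM in the dendrites of neuron 9. The sums were lower in the soma (149 CPM) and dendrites (2735 CPM) of neuron 8. They were also lower in the soma of neuron 9 (3358 CPM) and the dendrites of neuron 7 (1424 CPM). Neurod6 was at 1512 CPM in the soma of neuron 7 and 3767 CPM in the dendrites of neuron 9. It was lower in the other 4 libraries, at 61.8 CPM in the soma and 337 CPM in the dendrites of neuron 8, 589 CPM in the soma of neuron 9 and 542 CPM in the dendrites of neuron 7. Slc17a6, a vesicular glutamate transporter gene, was at 324 and 743 CPM in the first pair, at 32.4 and 0.206 CPM in neuron 8, and at 153 and 0.125 CPM in the soma of neuron 9 and the dendrites of neuron 7. Neurod2, another neuronal transcription factor gene, was at 5.33 CPM in the soma of neuron 7 and 82.9 CPM in the dendrites of neuron 9, against 106 CPM in the soma of neuron 9, 53.4 CPM in the dendrites of neuron 8, 0.0739 CPM in the soma of neuron 8 and 0.250 CPM in the dendrites of neuron 7. Slc17a7, the other main vesicular glutamate transporter gene, lay between 0.0739 and 5.57 CPM in all 6 libraries, with the highest value in the dendrites of neuron 8. Whole profiles, centred within compartments, had a Spearman correlation across the 4916 tested genes of 0.259 between the soma of neuron 7 and the dendrites of neuron 9 and of 0.165 between the soma of neuron 9 and the dendrites of neuron 7, against 0.0907 within neuron 7, 0.193 within neuron 8 and 0.0699 within neuron 9. The soma of neuron 8 and the dendrites of neuron 9, however, stood at 0.231, above the value within neuron 8. The dendrites of neuron 8 stood at 0.142 with the soma of neuron 7 and at 0.126 with the soma of neuron 9. Between the soma of neuron 8 and the dendrites of neuron 7 the value was 0.0999. Whole profiles thus followed the grouping by interneuron genes only in part. Which number each library should carry was not tested, and every result on soma and dendrites of these neurons rests on the labels as given.

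Counts of Sst and Slc32a1 relative to those of Gad1 in the same library varied between the libraries of these neurons, and the reason was not tested. Sst stood at 7.17% of the Gad1 counts in the soma of neuron 7 and 19.7% in the dendrites of neuron 9. Both values lay within the span of the other 4 libraries. These had 37.6% in the dendrites of neuron 7, 157% in the soma of neuron 9, and 0.328% and 34.7% in the soma and dendrites of neuron 8. Slc32a1 stood at 0.0463% and 0.115% of Gad1 in the soma of neuron 7 and the dendrites of neuron 9, and between 7.32% and 43.9% in the other 4 libraries.

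The third question was which of the genes occurred in the same library. Lhx6 and Gad2, each held by 4 libraries, never occurred without Gad1 and Sst: all 4 libraries with Lhx6 held Gad1, Slc32a1, Dlx1 and Sst, and 3 of them Gad2, while all 4 with Gad2 held Gad1 and Sst. All 6 libraries with Dlx1 held Slc32a1, where the marginal shares would give 2.25, and 5 held Gad1. Gad1 and Sst occurred together in 10 libraries, against 6.75 from the shares. Gad1 and Slc32a1, although parts of the same transmitter system, shared 6 libraries, against 6.75 from the shares, that is 2 somata (2.63 from the shares) and 4 dendrites (4.13). Calb2 occurred with Gad1 in 9 libraries against 10.7, with Slc32a1 and with Sst in 6 each against 7.13, and with Dlx1 in 1 against 3.56. The counts of shared libraries describe 32 libraries from 16 neurons and carry no test. Without neurons 7, 8 and 9, 4 libraries held Gad1 and Sst (2.77 from the shares), 2 held Gad1 and Slc32a1 (3.69), 8 held Gad1 and Calb2 (8.31), and both libraries with Dlx1 held Slc32a1. In these 26 libraries Lhx6 was held by 0 libraries and Gad2 by 1, so that no pair with Lhx6 was left.

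**Figure D4:**
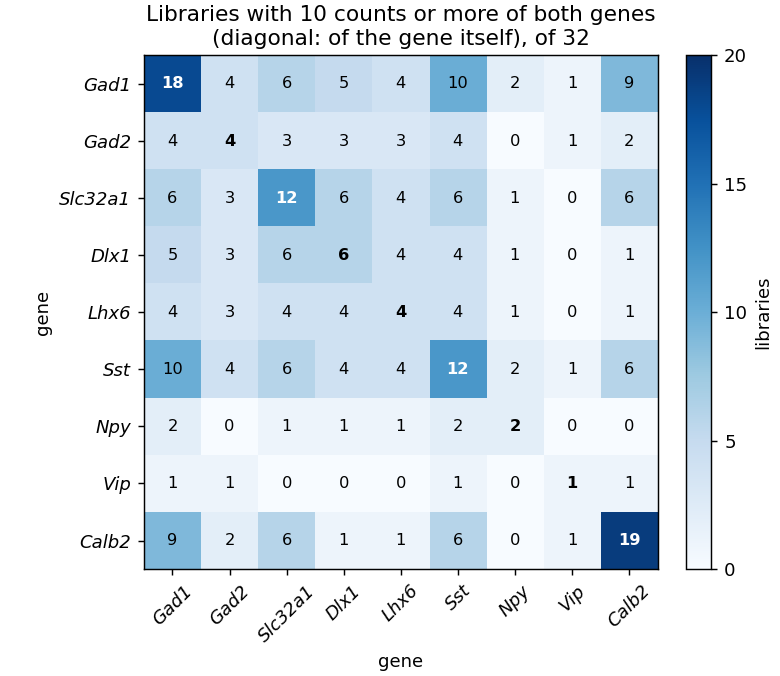
Number of libraries, of 32, with 10 counts or more of both genes, and on the diagonal of the gene itself. Rows of Dlx1 and Lhx6 show the overlap with Gad1, Slc32a1 and Sst, while Calb2, held by 19 libraries, shares 1 library with each of Dlx1 and Lhx6.

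Over the 32 libraries, the genes most like each member were found by Pearson's r of log2(CPM + 1), centred within compartments, among genes held by at least 4 libraries (7936 besides the member itself). The r values describe libraries that come in pairs from 16 neurons, and many rest on the same few libraries. For Slc32a1 the nearest genes were Pnoc, which encodes the peptide precursor prepronociceptin (r = 0.72), then Dlx1 (0.71) and Reln, which encodes the secreted protein reelin (0.69). For Gad2 they were Rpp25 (0.94), Crhbp, which encodes a protein that binds corticotropin-releasing hormone (0.93), and Chpt1 (0.87). For Gad1 they were Srxn1 (0.69), Ppp1r3c (0.68) and Pnoc (0.66). Of the other members, Lhx6 had rank 14 for Gad1 (r = 0.60), Sst rank 16 (0.60), Gad2 rank 26 (0.58) and Dlx1 rank 99 (0.50), but Slc32a1 only rank 1040 (0.32). Calb2 had Crym (0.67), Btg2 (0.64) and Dnaaf2 (0.64) as nearest genes, and its r with Gad1, Gad2, Slc32a1, Dlx1, Lhx6 and Sst lay between -0.39 and -0.16.

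Lhx6 had as nearest genes Slc30a3, a synaptic zinc transporter gene (r = 0.91), Rpp25 (0.87) and Gfap, the filament gene of astrocytes (0.83). Dlx1 had Sox2, a transcription factor gene of progenitors and astrocytes (0.95), Slc30a3 (0.87) and Rpp25 (0.83). Sst had Slc30a3 (0.84), Ptpn1 (0.81) and Gja1, an astrocyte gap junction gene (0.78). Of 419 genes held by exactly 4 libraries, 3 had the same libraries as Lhx6: Lhx6 itself, Rpp25 and Slc30a3. None of the 419 was held by just the 4 libraries labelled neurons 8 and 9, or by just those labelled 7 and 8. The libraries of neuron 8 with the soma of neuron 7 and the dendrites of neuron 9 also gave 0. Lhx6 itself set the pattern, and Rpp25 and Slc30a3 are its nearest genes above, so these counts do not test how the libraries group. These patterns were looked at after the values of Lhx6 were known.

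Astrocyte transcripts moved with this set in part. Of the 9 astrocyte markers among the gene rows, 7 were held by the dendrites of neuron 7 (summed level 1883 CPM), 7 by the dendrites of neuron 8 (520 CPM), 6 by the soma of neuron 8 (49.5 CPM) and 5 by the soma of neuron 9 (445 CPM), against 5 in the soma of neuron 7 (49.2 CPM) and 2 in the dendrites of neuron 9 (16.9 CPM). In the 26 libraries of other neurons between 0 and 7 markers were held, with summed levels from 0.162 to 1156 CPM. The defining marker Aqp4 was at 0 counts in the somata of neurons 8 and 9 and at 24.5 and 14.8 CPM in the dendrites of neurons 7 and 8, with 1.60 CPM in the soma of neuron 7 and 0 in the dendrites of neuron 9. The libraries of neurons 7, 8 and 9 were also among those that held more genes of any kind, at 5619 to 6414. The range in the others was 2479 to 6291 and overlapped, with 6291 in the soma of neuron 13. Endothelial, mural and fibroblast markers, of which 2 or 3 of 7 were held in each of these 6 libraries, summed to 600.0 CPM in the soma of neuron 9, 445 CPM in the dendrites of neuron 7 and 120 CPM in the dendrites of neuron 8, against 7.39 CPM in the soma of neuron 8, 7.66 CPM in the soma of neuron 7 and 38.8 CPM in the dendrites of neuron 9. In the other 26 libraries they summed to 0 to 795 CPM, and the endothelial marker Cldn5 and the mural marker Rgs5 were held by none of the 32. The part of astrocyte RNA, of these other cell types or of library complexity in these results was not tested.

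Interneuron and pyramidal genes were not exclusive of each other in a library. All 18 libraries with Gad1 held Neurod6, which could not be otherwise, since all 32 libraries held it. Of these 18, 10 held Slc17a6, against 10.7 from the shares. Slc17a6 was held by 5 of the 12 libraries with Slc32a1 (7.13 from the shares) and by 12 of the 19 with Calb2 (11.3 from the shares). The highest summed level of the 9 genes, 13307 CPM in the soma of neuron 8, came with 61.8 CPM of Neurod6. The soma of neuron 14, where the sum was 0, had a Neurod6 level close to that, 47.1 CPM. As a list, however, the excitatory markers summed to 149 CPM in the soma of neuron 8 and 1916 CPM in the soma of neuron 14. This excitatory sum of neuron 8 was the lowest among somata, where the median was 2385 CPM. Slc17a6 was also lower in the soma of neuron 8 (32.4 CPM) than in that of neuron 14 (210 CPM). The soma of neuron 9, with 1834 CPM of the 9 genes, had 3358 CPM of excitatory markers.

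**Figure D5:**
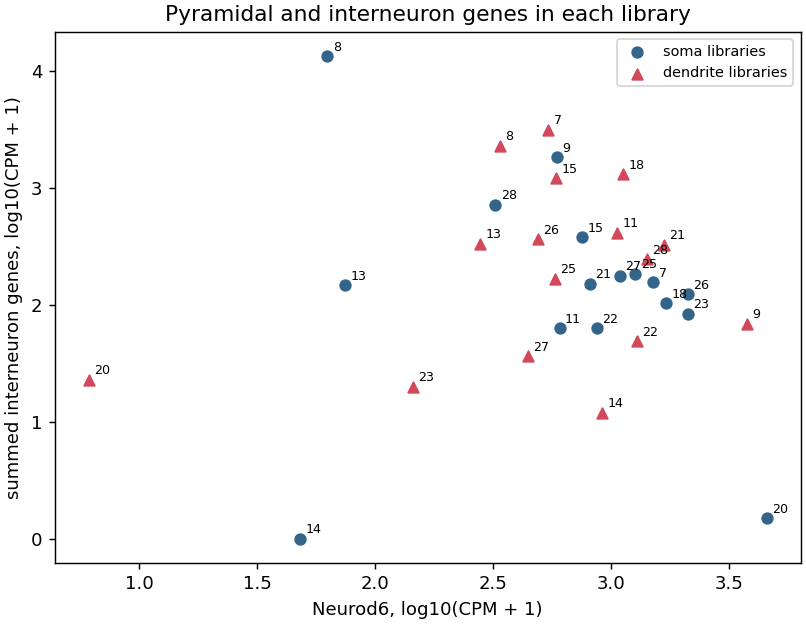
Summed level of the 9 interneuron genes against the level of Neurod6, both as log10(CPM + 1), in 16 soma (circles) and 16 dendrite libraries (triangles), labelled by neuron number. The soma of neuron 8 has the highest sum, and the soma of neuron 14, at a similar level of Neurod6, has a sum of 0.

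Other genes of the GABAergic system were taken from lists made for this account. Over all 17216 genes, 10873 were held by at least 1 library, which is the background for the counts of these lists. Of 13 further transcription factor genes of interneurons, 10 were held by at least 1 library and Dlx2, Sp8 and Sp9 by none. Satb1, a chromatin organizer gene, was held by 19 libraries, Nr2f2 by 9 and Dlx5 by 4. Of 19 further subtype markers, 18 were held by at least 1 library, and Pvalb, the parvalbumin gene, by none. Cnr1, the cannabinoid receptor gene, was held by 30 libraries, Calb1, the calbindin gene, by 23, Cck, the cholecystokinin gene, by 22 and Chodl by 14. Whether these transcripts came from interneurons was not tested.

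Among 8 genes of GABA uptake, breakdown and supply, 6 were held, with Slc6a11 and Slc6a13, which encode GABA transporters mainly of other cell types, held by none. Glul, the glutamine synthetase gene, was held by 25 libraries and Aldh5a1, a gene of GABA breakdown, by 17. In the test of dendrites against soma, 0 of the 9 tested genes of these 3 lists were called in either direction. Their median log2 fold changes were 1.26 (1 transcription factor gene), 1.68 (4 subtype markers) and -0.15 (4 genes of GABA handling), beside 0.127 over all 4916 genes.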

How the data were processed

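Each library has a deposited table of raw counts, whole numbers over 17308 rows, and its 92 ERCC spike-in rows were left out of library totals. The submitters' processing notes name build rn6. Aligner, annotation and the strand setting of the counting are not given in the sources used here, so counts of overlapping genes are uncertain. Compartment and neuron number were read from the titles. The series text describes a soma and a dendrite sample per cell, and the number was therefore used as a block. Same-numbered profiles had a mean Spearman correlation of 0.0678, others -0.000544.

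Counts were fitted in R 4.3.3 with edgeR 4.0.16 (filterByExpr, minimum count 10, TMM, quasi-likelihood test), with limma 3.58.1 and DESeq2 1.42.0 as alternatives, and Benjamini-Hochberg adjustment over all genes at 0.05. SEs were derived from the log2 fold change and its F statistic, and are unstable where that statistic is small, as for Calb2. Fisher's exact and exact sign tests (scipy 1.17.1) were run on all genes that could be tested. The edgeR fit and Fisher's exact test were checked on simulated data with strong changes or identical presence in both compartments. Recovery by edgeR was required only at a spread well below the fitted one. The check covers the code and does not show power in these data. Thinning left out neuron 25. P-values of the fits measure the spread between these neurons. Those of Fisher's exact and the exact sign tests use only whether a library held the gene. Some of the neurons may share a culture.

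The genes named are the 9 members, the 3 genes most like each member held by at least 4 libraries, and up to 4 genes of each list with the most libraries. Named outside this rule, after their values were seen, are genes given for single libraries (Aqp4, for example) and genes at 0. Some genes that the rule would name are not reported here. Dlx6, Lmo3, Ndnf, Emx1 and Sox9 of the lists were not analysed here. Oligodendrocyte lineage markers (7 of 9 held) and endothelial, mural and fibroblast markers (5 of 7 held) summed to at most 147 and 795 CPM in any library. The members and lists were chosen with earlier results of these data known. Alternatives are given in the closing section.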

Additional observations from a re-analysis of the deposited data

Results flagged for a closer look

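Spike-in transcripts, which entered none of the comparisons here, were present at a median share of 0.482% of all counts over the 32 libraries. The share ran from 0.0605% in the soma of neuron 8 to 4.33% in the dendrites of neuron 20. Control libraries to set it against were not used here.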

How the results depend on the processing

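The number of called genes was 0 in edgeR, and 0 with no replicate block, with DESeq2 size factors, with the stricter filter, with limma-voom, without neurons 7, 8 and 9, without neurons 20 and 25 and whenever 1 of the 16 neurons was omitted. The count was 1 with no filter on low counts and 403 with DESeq2's Wald test, where 1 member, Gad1, was called (log2 fold change 2.82). Gad1 turned to -1.41 with no replicate block and to -0.60 with limma-voom, and stayed between 1.80 and 2.89 when each neuron was left out. Calb2 turned to 0.029 with DESeq2, 0.046 with limma-voom and 0.12 without neurons 7, 8 and 9, and ran from -0.72 to 0.13 when each neuron was left out, above 0 without neuron 9 (0.11) or 21 (0.13). The causes were not tested. The tests of presence called 0 genes under every alternative, which says nothing about stability, since a single gene could not pass the adjustment with 16 neurons. The 78 combinations of gene and library that were held became 49 without neurons 7, 8 and 9, where fewer libraries enter, and stayed between 58 and 108 under the other alternatives, and libraries with at least 2 members, 22 in all, numbered 13 to 30 over the alternatives. For single members, 30 of 144 recounts of libraries and 13 of 72 recounts of shared neurons moved by over 1.5 times. Depth limits absence in shallow libraries: 4 counts of Lhx6 in the dendrites of neuron 25 amount to 17.5 CPM.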
